A study of Saccharomyces cerevisiae with 3 samples.

Results

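The genes described here are 32 genes of sulfur and methionine metabolism in budding yeast, listed by symbol as pathway enzymes, transporters and regulators. The listing uses no measured value, but it was chosen with earlier results of these data known. All 32 were found among the 5574 genes named on the array, and they were grouped into 21 enzymes, 4 transporters, 6 regulators and MET18. The study followed Saccharomyces cerevisiae through a fast move out of a fermentable and into a nonfermentable carbon source, and the labels class it under stress and nutrient limitation. Each of the 3 samples was 1 two-colour array, titled G0, Y5 or Y10, with RNA of the mRNP fraction in Cy3 and RNA of a fraction named Poly in Cy5. Poly is read here as polysomes, mRNAs that carry several ribosomes, and mRNP as messenger ribonucleoprotein, the mRNA outside them. Strain, medium and the meaning of the letters and numbers in the titles are not given in the labels, and each title had 1 array, so no test between arrays was possible and a size of 1 log2 unit was used to count genes. Y5 and Y10 are called the later arrays by the numbers in their titles, and that these follow G0 in time is an assumption.

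A level below is the log2 ratio of a gene relative to the median of its array. Base 2 is assumed, and a positive level is read as more of the mRNA in the polysome fraction, which is likely but not stated. The basis is the convention of red over green, and the coding length. Across all genes the level increased with coding length on each array (Spearman's rho 0.32 over 5548 genes on G0, 0.48 over 5563 on Y5 and 0.34 over 4446 on Y10, genes not being independent), and longer mRNAs have room for more ribosomes. The array titles name mRNP first, which would fit the other direction, and all signs would then be opposite. Within 1 ratio, more mRNA in polysomes and less in the mRNP fraction cannot be told apart. The Y10 array is numbered differently from the others. Its values were moved to the spot numbers of G0 and Y5 by a rule inferred from the data, after which Y10 correlated with Y5 at r = 0.463 across spots (r = 0.0155 by deposited row) and 21 of the 32 genes had a Y10 value. Between repeat spots of a gene, the technical SD of 1 spot was 0.453 (G0), 0.394 (Y5) and 0.429 (Y10) (881, 886 and 408 genes with 2 spots). For a difference of arrays it was 0.448 (Y5 minus G0), 0.638 (Y10 minus G0) and 0.565 (Y10 minus Y5), and it holds no spread between cultures or hybridisations.

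Yeast builds its sulfur amino acids from sulfate. Sulfate is taken up, activated, reduced to sulfide and joined to a carbon skeleton made from homoserine, which gives homocysteine and then methionine. Methionine feeds S-adenosylmethionine, the main methyl donor of the cell, and the transsulfuration enzymes exchange sulfur between homocysteine and cysteine. Transcription of most of these enzymes depends on the activator Met4, which has no strong DNA binding of its own and is brought to promoters by Cbf1, Met28, Met31 and Met32, and which the ubiquitin ligase subunit Met30 restrains when sulfur is plentiful. The arrays compare fractions of mRNA and therefore bear on the distribution of these mRNAs, not on their amount.

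Most of these mRNAs lay on the polysome side of the array median on G0, and the enzymes lay far above the regulators. The median level of all 32 genes was 0.92 (G0), 0.54 (Y5) and 0.10 (Y10) (21 genes), against 0.0005, −0.047 and −0.002 over the other genes of the series on the same arrays. On G0, 15 of 32 genes were at least 1 log2 unit above the array median, compared with 9.26% of all genes. On Y5 the count was 7 of 32 (background 6.58%), and on Y10 it was 2 of 21 (background 2.81%). The plot of levels by gene shows the 32 genes in pathway order.

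**Figure D1:**
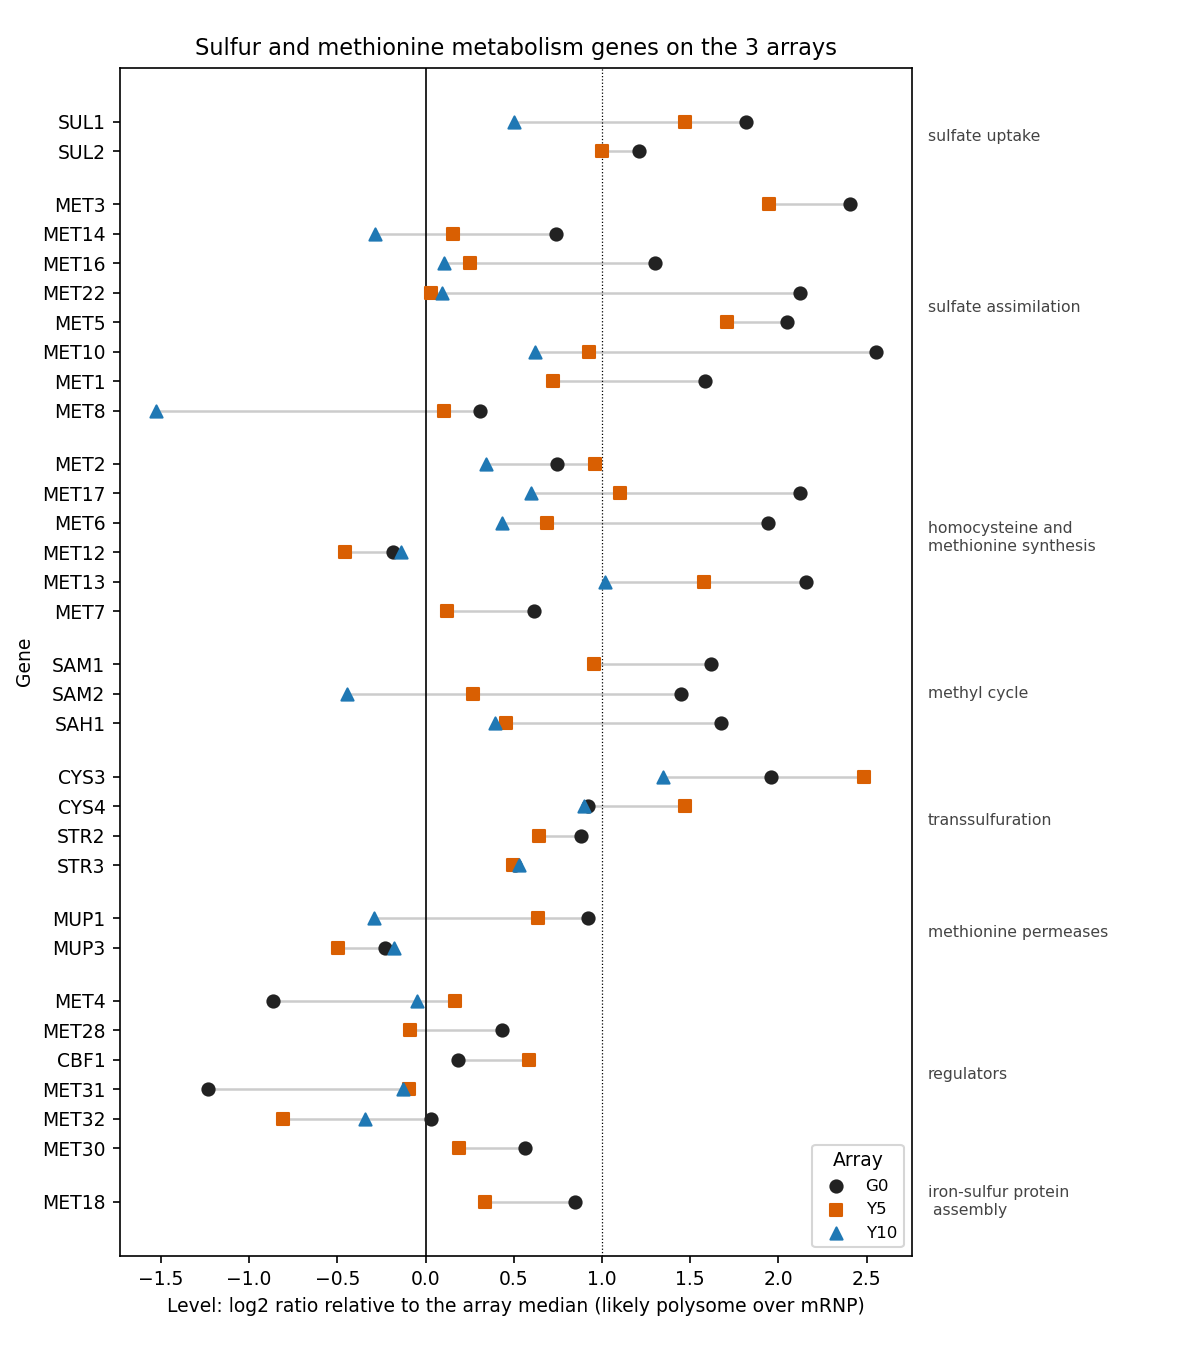
Level of each gene (horizontal axis, log2 ratio relative to the array median) on G0, Y5 and Y10, with genes down the page by pathway step; grey lines join the values of a gene and the dotted line marks 1 log2 unit. Sulfate assimilation genes spread from 0.31 to 2.55 on G0, the regulators stay at or below 0.59 on every array, and 11 genes have no Y10 point.

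The sulfate permeases were on the polysome side on all arrays that measured them. SUL1, a high-affinity sulfate permease, stood at 1.81 (G0), 1.47 (Y5) and 0.50 (Y10). SUL2, the other permease, stood at 0.998 on Y5 and 1.21 on G0 and had no Y10 value. Both were in the upper part of their arrays on G0 and Y5, SUL1 at percentile 98.7 of all genes on G0 and 97.5 on Y5, and SUL1 was lower by at least 1 log2 unit on Y10 than on G0 (−1.31) and close to it against Y5 (−0.97).

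Sulfate assimilation held the 2 highest levels of the 32 genes on G0, MET10 and MET3, and all 8 of its genes lay above the G0 median (list median 1.82). With each sector of spots centred on its own median, MET13 of methionine synthesis (2.46) stood between MET3 (2.63) and MET10 (2.22). MET3, ATP sulfurylase, which activates sulfate, stood at 1.95 on Y5 and 2.41 on G0, percentiles 99.3 and 99.8. MET5, the beta subunit of sulfite reductase, stood at 1.71 on Y5 and 2.05 on G0. MET10, the alpha subunit of the same enzyme, stood at 2.55 (G0), 0.93 (Y5) and 0.62 (Y10). The subunits of sulfite reductase were thus within 0.51 log2 units of each other on G0, where MET10 was the higher, and on Y5 they differed by 0.78, with MET5 the higher. With sector centring MET10 (2.22) and MET5 (1.98) differed on G0 by less than the technical SD of 1 spot, so their order there is unsure. MET22, the phosphatase that clears the by-product phosphoadenosine phosphate, stood at 2.12 (G0), 0.031 (Y5) and 0.093 (Y10). Its Y5 minus G0 difference of −2.09 was the lowest of the 32 genes, and its 2 later arrays differed by 0.062, less than the technical SD.

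MET16, the reductase that makes sulfite, had 2 spots, which stood at 0.35 and 0.16 on Y5, against 1.27 and 1.32 on G0. Its spots did not overlap between these arrays, and its averaged levels were 1.30 (G0), 0.25 (Y5) and 0.10 (Y10), with 1 spot on Y10. Repeat spots of 1 array are not replicate samples, and the share of all genes with 2 spots that did not overlap was not computed. MET14, the kinase between ATP sulfurylase and that reductase, also had 2 spots, which stood at 0.094 and 0.22 on Y5, against −0.0035 and 1.49 on G0. The spots disagreed on G0 by more than the technical SD, so that the averaged MET14 value of 0.74 on G0 is unsure. The Y10 minus G0 difference of −1.03 became −1.78 when only the spot with a Y10 value was used on G0. It became −0.28 when only the first spot was used on G0, but that spot has no Y10 value, so different spots are compared. The siroheme enzymes make the cofactor of sulfite reductase. MET1, a methyltransferase of that path, stood at 0.72 on Y5 and 1.58 on G0. MET8, its dehydrogenase and ferrochelatase, stood at 0.31 (G0), 0.11 (Y5) and −1.53 (Y10). MET8 had the lowest Y10 level of the 21 genes, from 1 spot, at percentile 2.11 of all genes on that array, and its Y10 minus Y5 difference was −1.63.

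In the synthesis of homocysteine and methionine the isozymes of methylenetetrahydrofolate reductase stood apart from each other. MET13, the main isozyme, stood at 2.16 (G0), 1.58 (Y5) and 1.02 (Y10). MET12, the other isozyme, stood at −0.19 (G0), −0.46 (Y5) and −0.14 (Y10). MET13 was higher than MET12 by 2.34 (G0), 2.04 (Y5) and 1.15 (Y10), each larger than the technical SD of its array. MET17, the sulfhydrylase that joins sulfide to the carbon skeleton, stood at 2.12 (G0), 1.10 (Y5) and 0.60 (Y10). MET6, the methionine synthase, stood at 1.94 (G0), 0.69 (Y5) and 0.43 (Y10). Both were lower by at least 1 log2 unit on each later array than on G0, but with all arrays scaled to a common spread MET17 differed by −0.77 on Y5, and with each sector of spots centred on its own median MET6 differed by −0.87 on Y10. MET2, homoserine acetyltransferase, which makes that carbon skeleton, stood at 0.74 (G0), 0.96 (Y5) and 0.34 (Y10) and differed by less than 1 log2 unit between any of the arrays. MET7, which adds glutamates to folates, stood at 0.12 on Y5 and 0.61 on G0.

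The methyl cycle genes were close together on G0 and lower on the later arrays. SAH1, S-adenosylhomocysteine hydrolase, stood at 1.68 (G0), 0.46 (Y5) and 0.40 (Y10). SAM2, an S-adenosylmethionine synthetase, stood at 1.45 (G0), 0.27 (Y5) and −0.44 (Y10). With sector centring SAM2 stood at 0.044 on Y10, just above the median. SAM1, the other synthetase, stood at 0.96 on Y5 and 1.62 on G0. SAM1 and SAM2 are near-identical copies, so their spots may share signal, and how far the deposited values separate them was not tested. SAM1 was higher than SAM2 by 0.69 on Y5 and by 0.17 on G0, the second of which is below the technical SD of 1 spot. With sector centring SAM2 (1.79) was above SAM1 (1.28) on G0, so their order there is unsure. On Y5 SAM1 (0.77) was still above SAM2 (0.29) under that centring.

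In transsulfuration no measured gene (4 on Y5, 3 on Y10) was lower by 1 log2 unit on either later array than on G0. Over all genes 10.5% (Y5) and 12.1% (Y10) were, so that none among so few genes is near that share. Only 1 of these enzymes, CYS3, was at least 1 above the median on G0. CYS3, cystathionine gamma-lyase, which releases cysteine, stood at 1.96 (G0), 2.49 (Y5) and 1.34 (Y10). On Y5 it was the highest of the 32 genes, at percentile 99.9 of all genes, and it was also the highest of the 21 on Y10, at percentile 98.7. CYS4, cystathionine beta-synthase, the enzyme before it, stood at 0.92 (G0), 1.47 (Y5) and 0.90 (Y10). Y5 minus G0 was 0.53 for CYS3 and 0.55 for CYS4, the highest values among the enzymes, each a little above the technical SD of 0.448. With sector centring they were 0.30 and 0.23, below that SD, and CYS4 (1.39) was then above CYS3 (1.24) on Y10. Y10 minus Y5 was −1.14 for CYS3, or −0.68 with all arrays scaled to a common spread, and its Y10 minus G0 difference turned from −0.62 to 0.022 with that scaling. The enzymes of the opposite path, from cysteine to homocysteine, differed less between arrays. STR3, cystathionine beta-lyase, stood at 0.51 (G0), 0.50 (Y5) and 0.53 (Y10). STR2, cystathionine gamma-synthase, stood at 0.64 on Y5 and 0.88 on G0. CYS3 and STR3 lie in the first sector of spots, where the row numbers of Y10 and the other arrays are the same, so that their Y10 values do not rest on the renumbering.

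The methionine permeases differed. MUP1, the high-affinity permease, stood at 0.92 (G0), 0.64 (Y5) and −0.29 (Y10). MUP3, the low-affinity one, stood at −0.23 (G0), −0.50 (Y5) and −0.18 (Y10). MUP1 was higher by 1.15 than MUP3 on G0 and by 1.14 on Y5, and MUP1 minus MUP3 was −0.11 on Y10, within the technical SD. Both Y10 spots, like that of SAH1, lie in sectors in which renumbered Y10 correlated little with Y5 (r = 0.233 for the sector of MUP1 and r = 0.109 for that of MUP3 and SAH1, in a range of 0.109 to 0.774 over sectors), the lowest such correlations among the 21 genes.

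The regulators lay lower than most enzymes, between −1.23 and 0.59 over the 3 arrays. MET4, the activator, stood at −0.86 (G0), 0.17 (Y5) and −0.051 (Y10). MET31, a zinc finger protein that binds the promoters and brings Met4 there, stood at −1.23 (G0), −0.091 (Y5) and −0.13 (Y10). These had the lowest G0 levels of the 32 genes, at percentiles 7.77 and 2.09 of all genes, and both were nearer the median on the later arrays. With each sector of spots centred on its own median, MET4 stood at 0.44 on Y10, above the median. MET32, the paralog of MET31, stood at 0.032 (G0), −0.81 (Y5) and −0.34 (Y10). Its G0 level, close to the median, turned to −0.033 with sector centring. MET31 minus MET32 was −1.26 (G0), 0.72 (Y5) and 0.22 (Y10), the last below the technical SD of 0.429. With sector centring MET31 and MET32 nearly met on Y5 (−0.35 and −0.44) and on Y10 (−0.16 and −0.14, where MET32 was the higher). Their order on Y5 and Y10 is therefore unsure, whereas MET31 was the lower on G0 under both centrings. CBF1, the other DNA-binding partner, which also acts at centromeres, stood at 0.59 on Y5 and 0.18 on G0. MET28, a leucine zipper protein of the Met4 complex, stood at −0.088 on Y5 and 0.43 on G0. MET30, the F-box protein that restrains Met4, stood at 0.19 on Y5 and 0.56 on G0. MET18, named for its methionine requirement but known for its part in iron-sulfur protein assembly, stood at 0.34 on Y5 and 0.85 on G0.

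Set against each other, enzymes were higher than regulators on G0 by 1.48 (medians 1.58 over 21 enzymes and 0.11 over 6 regulators). On Y5 the gap was 0.65 (medians 0.69 and 0.038 over the same genes). On Y10 it was 0.52 (medians 0.40 over 15 enzymes and −0.13 over 3 regulators). The classes overlapped on every array. On G0 the regulators ranged from −1.23 to 0.56 and the enzymes from −0.19 to 2.55, with 13 enzymes and 0 regulators at least 1 above the median. Over the genes with a value on all arrays the medians were 1.45 (G0), 0.50 (Y5) and 0.40 (Y10) for the 15 enzymes, and −0.86, −0.091 and −0.13 for the 3 regulators. The narrowing between G0 and the later arrays thus appeared in both sets of genes, with enzymes lower and, among these 3, MET4 and MET31 higher. With all arrays scaled to a common spread the gap was 1.27 (G0), 0.62 (Y5) and 0.66 (Y10), so the order of Y5 and Y10 depends on the scale.

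The coding lengths differ between the classes as well. Enzymes had a median coding length of 1461 bases (609 to 4329) and regulators of 816 bases (534 to 2019), in assembly R64. Among the 32 genes the level increased with length at rho 0.29 (G0), 0.41 (Y5) and 0.41 (Y10) (21 genes), near the values over all genes on G0 and Y5. MET31, MET28 and MET32, at 534, 564 and 576 bases, were shorter than every enzyme, and CBF1 had 1056 bases. MET4 and MET30, at 2019 and 1923 bases, were longer than most enzymes. All 6 regulators lay below the enzyme median on each array that measured them. The part of length in the gap between classes was not tested.

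**Figure D2:**
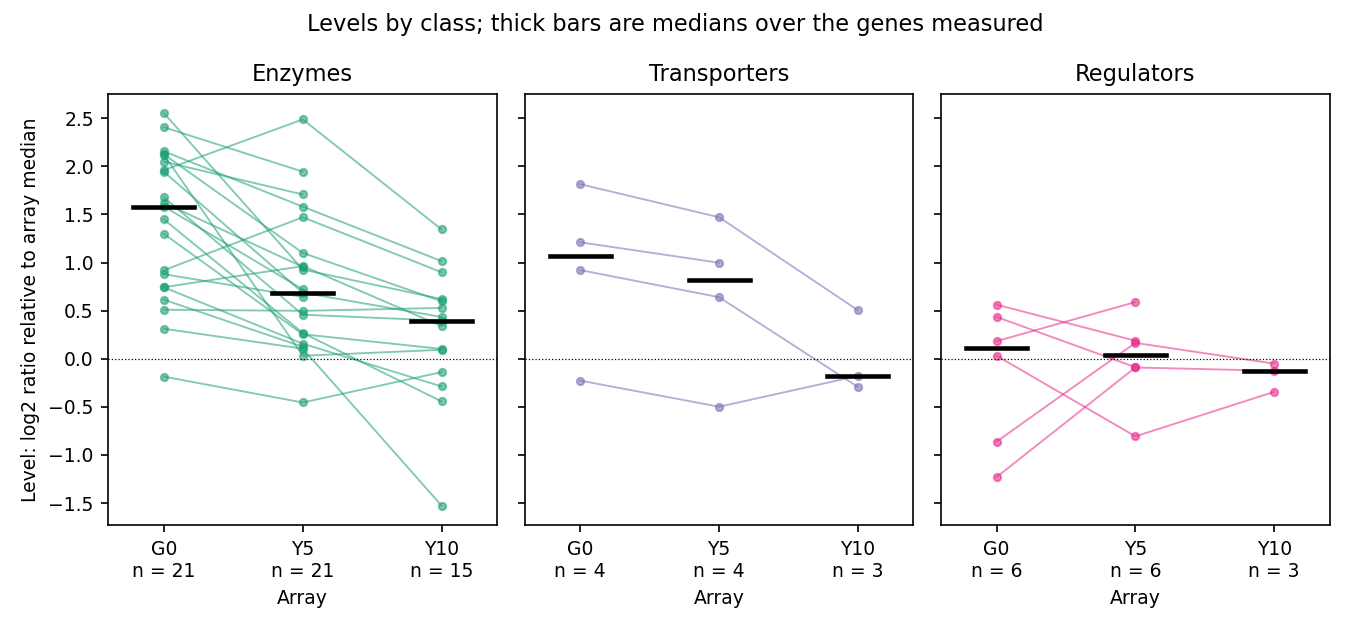
Level on each array (vertical axis, log2 ratio relative to the array median) of the enzymes, transporters and regulators, with 1 line for each gene and thick bars for the medians over the genes measured. The enzyme median was 1.58 (G0), 0.69 (Y5) and 0.40 (Y10), and the regulator median stayed between −0.13 and 0.11, with the single regulators closest together on Y10.

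On Y5, 7 of 32 genes were lower by at least 1 log2 unit than on G0 (background 10.5% of all genes), and all of them were enzymes. They were MET22 (−2.09), MET10 (−1.63), MET6 (−1.26), SAH1 (−1.22), SAM2 (−1.18), MET16 (−1.04) and MET17 (−1.02). They come from assimilation, methionine synthesis and the methyl cycle. The genes higher by at least 1 were 2 of 32, near the background of 4.02%, and were the regulators MET31 (1.14) and MET4 (1.03). Both had the lowest G0 levels of the 32 genes, and the share of all genes of low G0 level that were higher was not computed. Their rise is therefore not shown to be a trait of regulators. The median difference was −0.42 over the 32 genes, −0.58 over the enzymes, 0.015 over the regulators and −0.0072 over all genes, and 26 of the 32 were below 0 (background 50.4%). With all arrays scaled to a common spread, 3 of the genes kept a difference of at least 1 below G0 (MET10, MET22 and MET6) and, of the higher ones, MET31 (0.97) and MET4 (0.90) were under 1. With sector centring MET31 (0.87) and MET4 (0.88) were under 1 as well, as was SAH1 (−0.93), and MET10 differed by −1.0. Shares over all genes under these settings are not given here.

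Among all genes, a high G0 level went with a lower later level. Of all 513 genes at least 1 above the median on G0, 41.9% were lower by at least 1 on Y5, and of the 15 such sulfur genes 7 were (46.7%), which is close to that background. The sulfur genes of this kind that differed least were SUL2 (−0.21), MET5 (−0.34), SUL1 (−0.34) and MET3 (−0.46), and CYS3 (0.53) was above 0. The scatter of each later array against G0 shows the sulfur genes among all others.

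**Figure D3:**
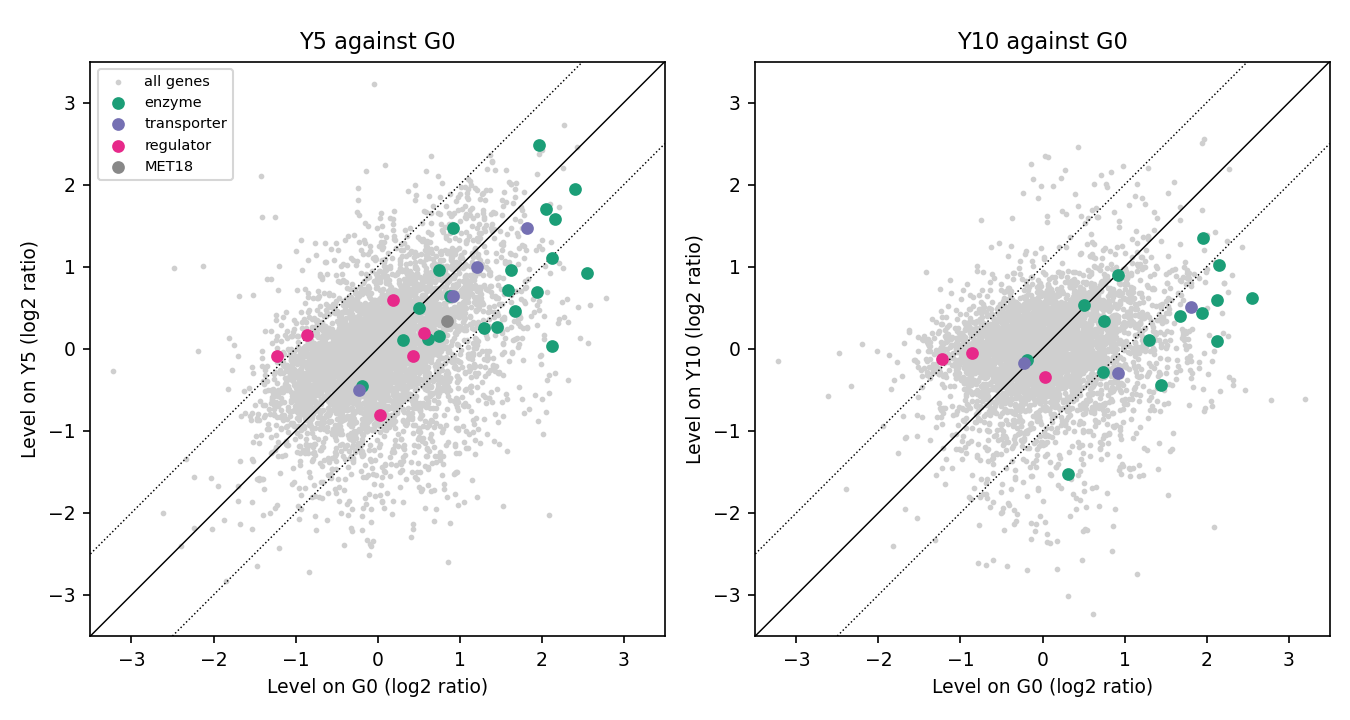
Level on Y5 (left) and on Y10 (right) against the level on G0, in log2 units relative to each array median, for all genes (grey) and the sulfur and methionine genes (coloured by class); the solid line marks equal levels, the dotted lines a difference of 1, and 3 and 4 genes lie outside the axes. The 15 sulfur genes above 1 on G0 lie mostly below the line of equal levels, as do many grey points at the same G0 level, whereas MET4 and MET31 lie above it.

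On Y10, 12 of 21 genes were lower by at least 1 than on G0 (background 12.1% of all genes). 7 of them were also lower by at least 1 on Y5, and the other 5 were MET8 (−1.84), SUL1 (−1.31), MUP1 (−1.21), MET13 (−1.14) and MET14 (−1.03). Y5 and Y10 are compared with the same G0 array here, so the overlap is no independent repeat. With all arrays scaled to a common spread 8 of the 12 were lower by at least 1, without SUL1 (−0.92), MET13 (−0.56), MET16 (−0.98) and SAH1 (−0.94). After quantile normalization 7 were, without these 4 and MET14 (−0.94). With sector centring 10 were, without MET6 (−0.87) and MET16 (−0.87). MET31 was the 1 gene higher by at least 1 (1.11, background 6.51%), and MET4 differed by 0.81. These were 0.90 and 0.67 when scaled, and 1.06 and 1.15 with sector centring. Of the 21 genes, 16 were below 0 (background 51.9%). The median difference was −1.14 over the 21 genes, −1.20 over 15 enzymes and −0.035 over all genes. Of genes at least 1 above the median on G0, 9 of 10 sulfur genes were lower by at least 1, against 57.1% of all 403 such genes. By deposited row number, under which Y10 is unrelated to the other arrays, 15 of the 30 sulfur genes that then have a Y10 value were also lower by at least 1, so that a count of this size also arises without matched Y10 levels. The shares over all genes under that numbering and under the other settings are not given here, so these counts cannot be set against a background. The Y10 level itself did change with the numbering, the enzyme median being 0.40 renumbered and −0.064 by deposited row.

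**Figure D4:**
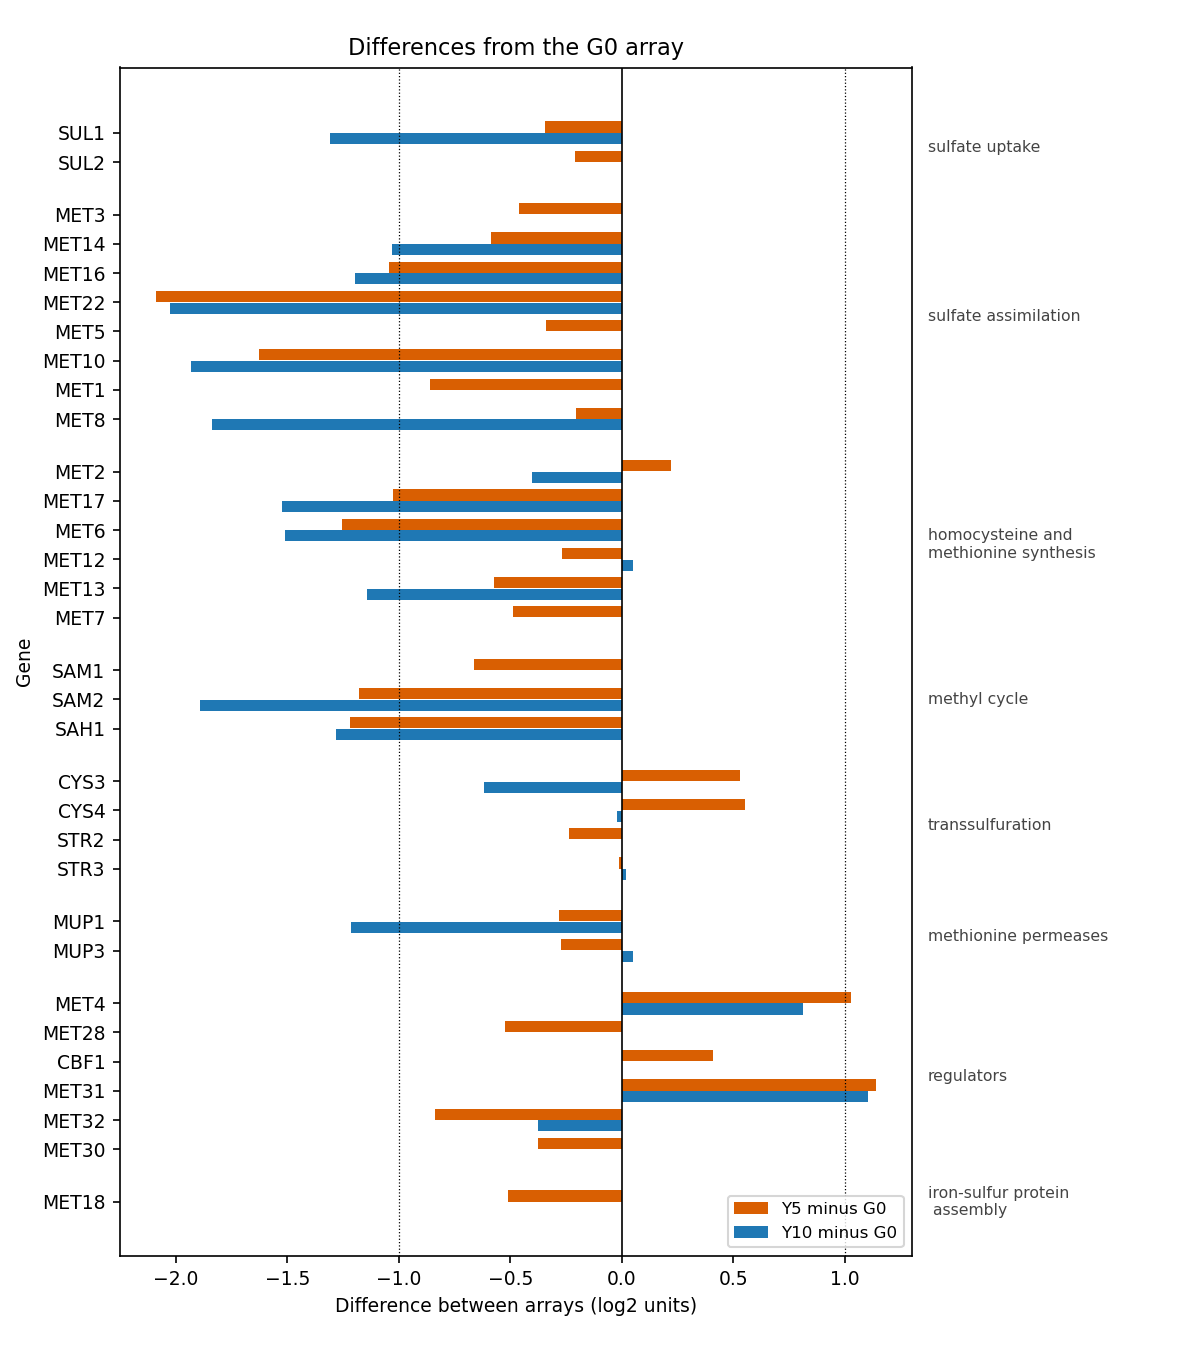
Difference in level between each later array and G0 (horizontal axis, log2 units) for each gene, in pathway order, with bars for Y5 minus G0 and Y10 minus G0 starting at 0 and dotted lines at 1 log2 unit either way; both share the G0 array, and genes without a Y10 value have 1 bar. Most assimilation, methionine synthesis and methyl cycle genes lie below 0, the transsulfuration genes stay at −0.62 or above, and MET4 and MET31 lie above 0.

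Between the later arrays, 2 of 21 genes were lower by at least 1 on Y10 than on Y5 (background 5.3%), MET8 (−1.63) and CYS3 (−1.14), and 0 were higher by as much (background 3.77%). The median difference was −0.31 over the 21 genes and 0.0060 over all genes, and 16 of the 21 were below 0 (background 49.6%). This comparison holds no G0 value. Of sulfur genes at least 1 above the median on Y5 and measured on both arrays, 1 of 5 was lower by at least 1 on Y10 (background 29.8%). SUL1 (−0.97), MUP1 (−0.93) and SAM2 (−0.71) came next below, and MET32 (0.46), MUP3 (0.32) and MET12 (0.32) were the highest. The 3 highest differences were below the technical SD of 0.565, and their genes were below the array median on Y5. With sector centring SUL1 (−1.25) and MUP1 (−1.23) were lower by at least 1 as well. MET16 (0.30) was then the highest, MUP3 differed by 0.18 and MET12 by 0.005. On all 3 arrays in order, 11 of 21 genes were highest on G0 and lowest on Y10 with Y5 between, 9 of them enzymes, and 20.2% of all 4425 genes had that order. That share covers genes of every G0 level, and the share among genes of similar G0 level was not computed.

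Neighbouring genes of the pathway, a list of 31, were described in the same way. On G0, 13 of the 30 measured were at least 1 above the median (background 9.26%), and the list median was 0.86 (G0), 0.059 (Y5) and −0.094 (Y10) (19 genes). The highest on G0 were HOM6, homoserine dehydrogenase (2.0), and HOM2, aspartate semialdehyde dehydrogenase (1.98), which make the homoserine that MET2 uses. The lowest were GCN4, the activator of amino acid synthesis (−0.93), and MDE1, of methionine salvage (−0.44). On Y5, 11 of 30 were lower by at least 1 than on G0 (background 10.5%). Of all genes at least 1 above the median on G0, 41.9% were lower by at least 1 on Y5 and 57.1% on Y10. The share among neighbouring genes of that G0 level was not computed, so their counts are not shown to exceed it. HOM6 (−2.61) and HOM2 (−2.17) had the lowest differences in this list, followed by MRI1, of methionine salvage (−1.76, 2 spots). Both differed more from G0 than MET2, which they feed (0.22).

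The thioredoxins TRX1 (−1.69) and TRX2 (−1.29), which supply electrons to the MET16 reductase, were also lower by at least 1 on Y5 than on G0. So were the glutathione synthesis enzymes GSH1 (−1.09) and GSH2 (−1.35), which draw on cysteine. The others were SAM3, an S-adenosylmethionine permease (−1.30, 2 spots), MMP1, an S-methylmethionine permease (−1.17), SHM1, the mitochondrial serine hydroxymethyltransferase (−1.16), and THR1, homoserine kinase, at the branch to threonine (−1.05). GCN4 was the 1 gene higher by at least 1 (2.26, background 4.02%). On Y10, 7 of 18 were lower by at least 1 than on G0 (background 12.1%) and 0 were higher by that much (background 6.51%). The lower ones were HOM2 (−2.70), THR1 (−2.05), SAM3 (−1.68), GSH2 (−1.53), SHM1 (−1.29), MRI1 (−1.16) and TRX2 (−1.15), all of which were also lower by at least 1 on Y5, measured against the same G0 array.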

How the data were processed

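The deposited table gives 1 log ratio per spot for 8832 spots. Per the labels, Cy3 held mRNP and Cy5 Poly RNA, and the authors' design text names a regression correlation. Not given in the sources used here are base, direction, centring, background correction and spot filter. The deposited values were read as log2 ratios. The numbers of spots with a value were 8700 (G0), 8734 (Y5) and 7822 (Y10), with deposited medians of 0.0735, 0.067 and 0.071 in that order. The platform annotation gave 1 symbol for 6623 spots and none for 2209. All symbols were updated through gene IDs in the RefSeq table of assembly R64, from which coding lengths came.

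Y10 values were read in 32 sectors of 252, and the first 192 of each (6008 spots) were placed in sectors of 276. Arrays were centred on their medians and the spots of a gene averaged. Signal over background is unknown, so the number of arrays limits the precision. With 1 array per title no test was run, and counts use 1 log2 unit. All 32 genes may be named, and of the wider list those past 1 log2 unit against G0 and the 2 highest and lowest on G0. The genes, lists and numbering rule were chosen with earlier results of these data known. The functions were tested on simulated data. Python 3.11.15, pandas 2.3.3, NumPy 2.4.6 and Matplotlib 3.10.9 were used. Alternatives changed centring, scale, normalization, genes, spots, extreme values, log base and Y10 numbering.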

Additional observations from a re-analysis of the deposited data

How the results depend on the processing

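The class medians, gaps and counts were recomputed under 11 settings, the deposited row numbers and the last 60 spots bearing only on Y10 and its differences and the spots on both arrays only on differences. This gave 285 values, and 262 of them stayed within the technical SD of the main value (within 1.5 times for counts). Many could not move. No listed gene has more than 2 spots, so the median of spots equals their mean. The first spot and the spots on both arrays bear only on MET14 and MET16. Genes with a Y10 value are also those on all 3 arrays, so that setting leaves Y10 results as they were. The SD of 1 spot is also a wide limit for a median over genes, so the 262 is no measure of robustness. The count of genes lower by at least 1 on Y5 than on G0, 7 as reported, was 3 when scaled to one spread and 4 after quantile normalization. The count for Y10 and G0, 12 as reported, was 7 after quantile normalization. The count for Y10 and Y5, 2 as reported, was 1 when scaled, 1 after quantile normalization, 4 with sector centring, 5 with natural logarithms and 12 by deposited row (of 30 genes). The count at least 1 above the Y5 median was 12 with natural logarithms, against 7. Shares over all genes under the same settings are not given here, so whether the background moved with these counts is not known. Over genes on all 3 arrays, where 3 of 6 regulators remain, the regulator median on G0 was −0.86 (−0.87 after quantile normalization), the gap to the enzymes on G0 was 2.31 (2.11), the regulator median of Y5 minus G0 was 1.03 (1.06) and that gap was −1.61 (−1.65). With natural logarithms the enzyme median on G0 was 2.28, and the gap was 2.13 on G0 and −2.90 for Y10 minus G0. By deposited row the enzyme median was −0.064 on Y10 and −1.05 for Y10 minus Y5, the gap on Y10 was −0.16, and MET13 on Y10 turned to −0.61. Where no construction is named, the cause was not tested. Turning the direction was not run as a setting, since it only changes every sign. With the last 60 spots of each Y10 sector added, chosen after seeing the data, SAM1 stood at 0.068, MET5 at 0.97 and SUL2 at −0.67 on Y10, and these 1814 spots correlated with Y5 at r = 0.201. Using only spots measured on both arrays, also chosen after seeing the data, left the class medians, gaps and counts of the differences between arrays within these limits. The neighbouring genes were not recomputed under these settings. No paired analysis was possible because each title has 1 array.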
